A study of Danio rerio with 18 samples.

Results

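The nuclear genes that encode subunits of the mitochondrial respiratory chain and ATP synthase were followed through m6A immunoprecipitation, Ythdf2 immunoprecipitation and endothelial RNA libraries of zebrafish embryos. Members were taken by symbol: all genes whose symbol starts with NDUFA, NDUFB, NDUFC, NDUFS, NDUFV, SDHA to SDHD, UQCR, COX4 to COX8 or ATP5, leaving out the assembly factors NDUFAF and SDHAF and the genes of the mitochondrial genome. The rule found 85 genes among 33737 gene IDs, of which 21939 carried a symbol. By complex these were 36 genes of complex I, 5 of complex II, 7 of complex III, 18 of complex IV and 19 of complex V. The NDUFA4 family was placed with complex IV, where its mammalian protein sits. The rule reads the gene symbol alone.

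The respiratory chain, set in the inner mitochondrial membrane, passes electrons from NADH and succinate to oxygen. Complexes I, III and IV pump protons as they do so, complex II feeds electrons in from the citric acid cycle, and complex V, the ATP synthase, uses the returning protons to make ATP. Most subunits are encoded in the nucleus, translated in the cytosol and imported, and contracting muscle, which fills much of the trunk of the embryo, depends heavily on them. N6-methyladenosine, m6A, is a methyl mark that the METTL3 enzyme writes on mRNA, and YTHDF2 is a cytoplasmic protein that binds methylated mRNA and promotes its decay.

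All libraries came from embryos at 28 hours post fertilisation (hpf), with the tissue labelled as trunk. Fragmented trunk mRNA was sequenced before (input) and after (IP) pulldown with an m6A antibody, in control embryos and in embryos injected with a mettl3 morpholino, an antisense oligonucleotide that blocks the splicing or translation of its target. RNA bound to Flag-tagged Ythdf2 (RIP) came from embryos of normal genotype injected with ythdf2-Flag mRNA, a tagged protein made in excess of the embryo's own. Endothelial RNA was sequenced from control embryos, mettl3 morphants and ythdf2 morphants. Each of these 8 groups had 2 libraries. The labels do not give the morpholino types or doses, or the promoter or sort that defined the endothelial cells, and nothing in them says that libraries of a group came from separate clutches, so p-values measure the spread between these libraries, which may be technical.

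Gene counts ran from 32800475 to 78278767 in the trunk input and IP libraries, were 7901401 and 5273087 in the RIP libraries and ran from 3565193 to 4748921 in the endothelial ones. Replicate 1 of every trunk input and IP group was read at 151 bp and replicate 2 at 101 bp, and the most abundant gene took 16.4% to 20.5% of counts in the former and 4.51% to 10.5% in the latter. In CPM, gene counts scaled to a common library total, METTL3 in inputs was at 35.8 and 19.6 CPM under the control label and at 15.7 and 48.2 CPM under the mettl3 morphant label, lower in replicate 1 and higher in replicate 2. In endothelial libraries it went against the labels, at 20.2 and 18.8 CPM in control and 137 and 143 CPM in mettl3 morphant. YTHDF2 was likewise higher in endothelial libraries labelled ythdf2 morphant (22.7 and 29.3 CPM) than in control ones (5.69 and 9.20 CPM). A transcript level does not measure what a morpholino does to a protein, and every direction in the text is that of the library labels.

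The 85 genes together took 0.823% and 0.984% of control input counts and 0.511% and 0.681% of control IP counts. In the morphant inputs they took 0.936% and 0.898%, and in the morphant IP 0.557% and 0.713%. Both IP libraries therefore lay below both inputs under either label. The share in the RIP libraries was smaller, 0.0756% and 0.0347%. In endothelial libraries it was 1.03% and 1.04% in control, 0.905% and 0.909% in mettl3 morphant and 1.11% in both ythdf2 morphant libraries. In bulk RNA such as this, fewer cells of a type and less RNA per cell cannot be told apart.

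The first comparison asked how strongly transcripts of the respiratory chain were carried through the m6A pulldown, with IP set against input. In control trunk most of them were depleted: 50 of the 84 genes tested were lower in IP than in input and 2 were higher (edgeR quasi-likelihood test, Benjamini-Hochberg adjusted p below 0.05 over all genes). Among all 23163 genes tested, 14.6% were lower and 13.7% higher. The median log2 fold of the members was −0.80, against −0.03 for all genes, and 73 of 84 were below 0. Levels here are CPM after scaling by the trimmed mean of M-values (TMM), and a fold describes a whole gene relative to the other genes in the libraries, not the share of its molecules that carry m6A. Under total-count scaling the members' median was −0.69 with that of all genes at 0.09, and the count of lower members fell to 25. The share of all genes called under that scaling is not given, so this count cannot be read as particular to the members. The only untested member was ndufa4l2b, with at most 1 read in any library.

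**Figure D1:**
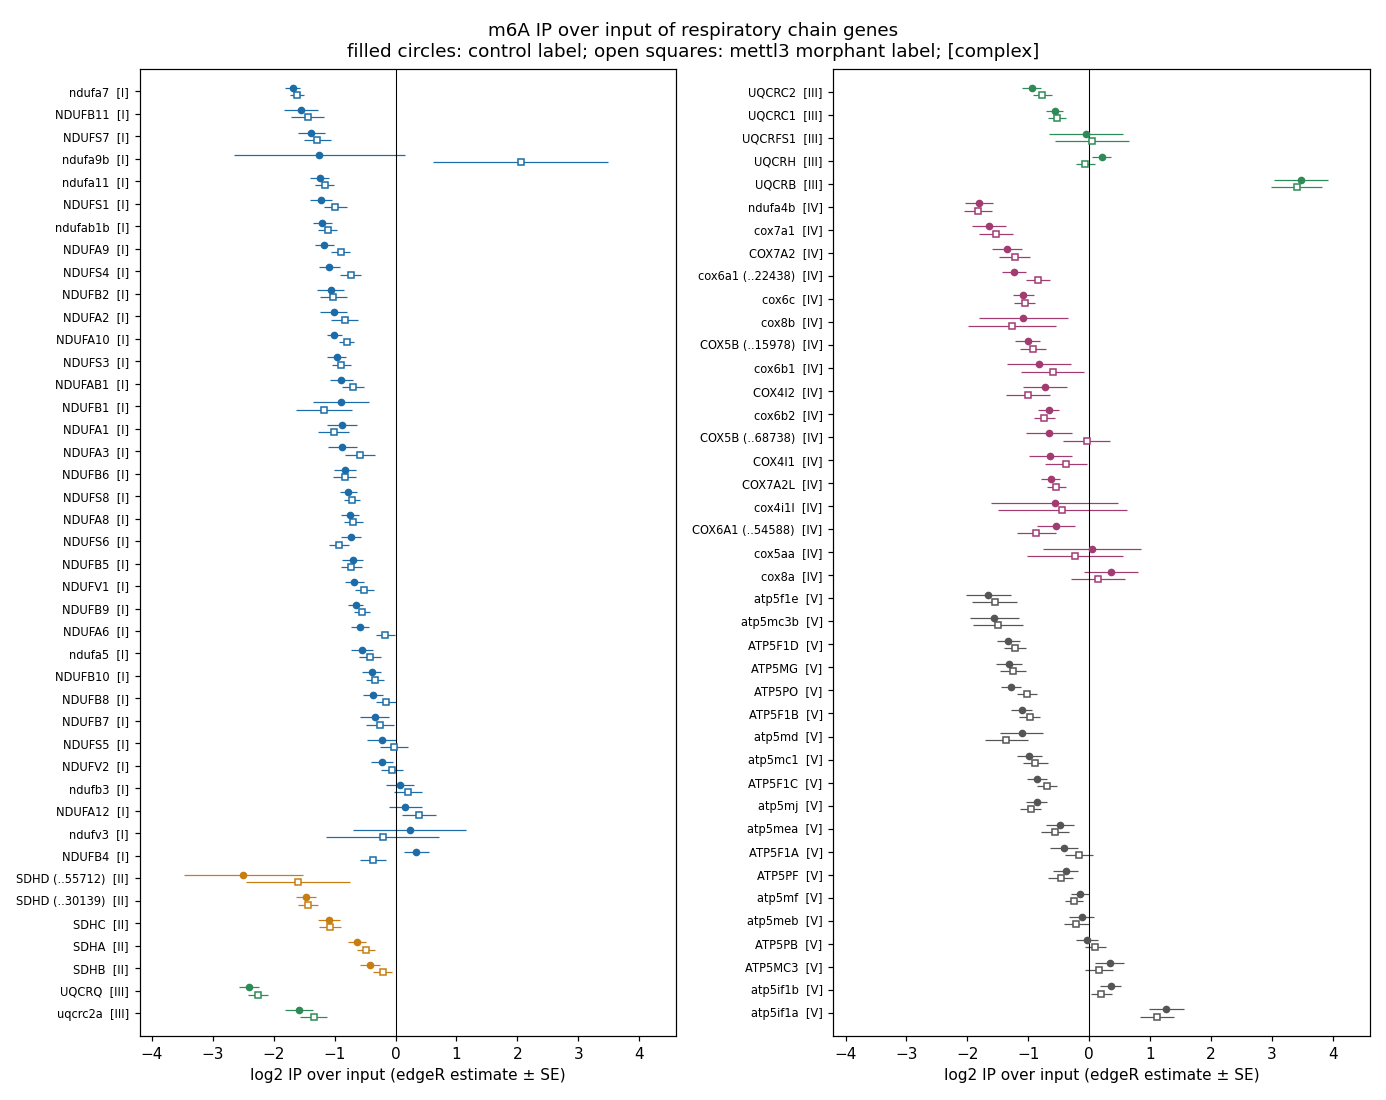
The log2 fold of m6A IP over input (horizontal axis) is drawn for 83 of the 84 tested subunit genes in control libraries and in libraries labelled mettl3 morphant, ordered within complexes, with circles for control, squares for morphant and bars for 1 standard error. Most points lie left of 0 under both labels, and UQCRB and atp5if1a stand to the right.

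In 68 of the 84 genes both control IP libraries were below both inputs, where 36.1% of all genes were, and in 7 both were above, where 33.6% were. The depletion was present at both read lengths: the median was −0.78 between the 151 bp libraries and −0.76 between the 101 bp libraries, and 77 of 83 genes (92.8%) had the same sign in both, against 84.0% of all genes. For 28 of the genes called lower the fold reached 2, which 6.21% of all genes tested did. The count of lower members fell without either control input and without control IP replicate 1, fits that leave 1 library in an arm. The share of all genes called in these fits is not given, so the fall cannot be read as particular to the members. Of the 50 calls, 23 were kept in all 14 settings, the main fit included. The share of all called genes that kept theirs is not given. All 50 folds stayed below 0 in each setting. In these genes both IP libraries lay below both inputs, so leaving out 1 library could hardly turn a sign.

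In complex I, the NADH dehydrogenase, 25 of 36 genes were lower in control IP, none was higher, and the median was −0.80. The 7 core subunits, which hold the electron-carrying cofactors, gave 6 lower genes with a median of −0.77, and the 29 accessory subunits gave 19 lower genes with a median of −0.83. The most depleted was ndufa7, an accessory subunit, at 57.8 and 59.3 CPM in control inputs against 18.2 CPM in both IP libraries. Its libraries of a kind nearly coincided and input and IP were far apart, a 3.22-fold lower level in IP (log2 −1.69, SE 0.12; edgeR adjusted p = 0.0019).

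Next in complex I was NDUFB11, an accessory subunit of the membrane arm, at 64.4 and 66.7 CPM in inputs and 18.2 and 26.6 CPM in IP (log2 −1.55, SE 0.27; edgeR adjusted p = 0.0059). The iron-sulphur subunit NDUFS7, next to the ubiquinone site, had 57.5 and 58.8 CPM in inputs and 18.6 and 26.0 CPM in IP (log2 −1.38, SE 0.22; edgeR adjusted p = 0.0046). In both genes every IP library was under every input. NDUFS1, the largest iron-sulphur subunit, went from 181 and 172 CPM to 68.6 and 82.3 CPM (log2 −1.23), and NDUFV1, which binds NADH and had the highest CPM of complex I, from 207 and 196 CPM to 123 and 129 CPM (log2 −0.68, SE 0.15; edgeR adjusted p = 0.0141). The core subunit that was not called, NDUFV2, was at 56.1 and 51.2 CPM in inputs and 50.3 and 41.8 CPM in IP (log2 −0.22, edgeR adjusted p = 0.399).

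Duplicated genes of complex I were depleted side by side. Of the acyl carrier protein genes, ndufab1b had a log2 fold of −1.21 and NDUFAB1 of −0.89, with all 4 input libraries of the pair above their IP libraries. Other accessory subunits did not show a depletion. NDUFB4 was at 14.2 and 16.1 CPM in control inputs against 19.8 and 18.6 CPM in IP (log2 0.34, SE 0.21; edgeR adjusted p = 0.253), and NDUFA12 at 25.1 and 26.9 CPM against 30.2 and 28.0 CPM, so in both genes the IP libraries were the higher ones without passing the test. The second NDUFA9 gene, ndufa9b, had from 0 to 0.223 CPM across the 8 trunk libraries, too few reads for its fold to be read.

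Complex II, succinate dehydrogenase, is the member of the chain that also works in the citric acid cycle. Of its 5 genes 3 were lower in control IP, with a median of −1.08. The membrane anchor SDHD (ENSDARG00000030139) had 73.6 and 71.5 CPM in inputs and 24.2 and 28.4 CPM in IP, a 2.76-fold lower level (log2 −1.47, SE 0.16; edgeR adjusted p = 0.0022). The other anchor SDHC had a log2 fold of −1.08, and the flavoprotein SDHA went from 153 and 155 CPM to 96.8 and 101 CPM (log2 −0.64, SE 0.15; edgeR adjusted p = 0.0160). The anchors thus showed larger folds than the catalytic subunits, and the iron-sulphur protein SDHB (log2 −0.42, edgeR adjusted p = 0.0817) was not called. A second gene with the symbol SDHD (ENSDARG00000055712) had the lowest fold of all members, −2.50, but at 0.393 and 0.209 CPM in inputs it rested on 35 reads and was not called (SE 0.98, edgeR adjusted p = 0.0878).

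Complex III, the cytochrome bc1 complex, held the lowest and the highest fold among the genes that passed the test in control. UQCRQ, a small subunit that sits beside cytochrome b, had 126 and 120.2 CPM in control inputs against 24.3 and 22.4 CPM in IP. It stood at a 5.27-fold lower level in IP (log2 −2.40, SE 0.16; edgeR adjusted p = 0.0019). At the other end UQCRB, another small subunit, was at 0.196 and 0.0840 CPM in inputs and 1.54 and 1.49 CPM in IP, an 11.1-fold higher level (log2 3.47, SE 0.45; edgeR adjusted p = 0.0027). That fold comes from 16 input reads and 122 IP reads, so UQCRB was hardly detected in the input, and reads from an overlapping gene or another strand cannot be told apart from its own.

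Of the 2 UQCRC2 genes, which encode a matrix-side core protein, uqcrc2a was depleted more. It went from 114 and 124 CPM in control inputs to 32.2 and 47.2 CPM in IP (log2 −1.58, SE 0.22; edgeR adjusted p = 0.0032), and UQCRC2 from 144 and 140.1 CPM to 68.5 and 79.1 CPM (log2 −0.94, SE 0.16; edgeR adjusted p = 0.0051). The partner core protein UQCRC1, with the highest CPM of complex III, had a log2 fold of −0.57. The hinge protein UQCRH lay a little higher in IP than in input, at 187 and 179 CPM against 163 and 156 CPM, and was not called (log2 0.20). UQCRFS1, the Rieske iron-sulphur protein, could not be placed, because its control inputs of 117 and 51.8 CPM enclosed its IP libraries at 76.1 and 86.3 CPM.

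**Figure D2:**
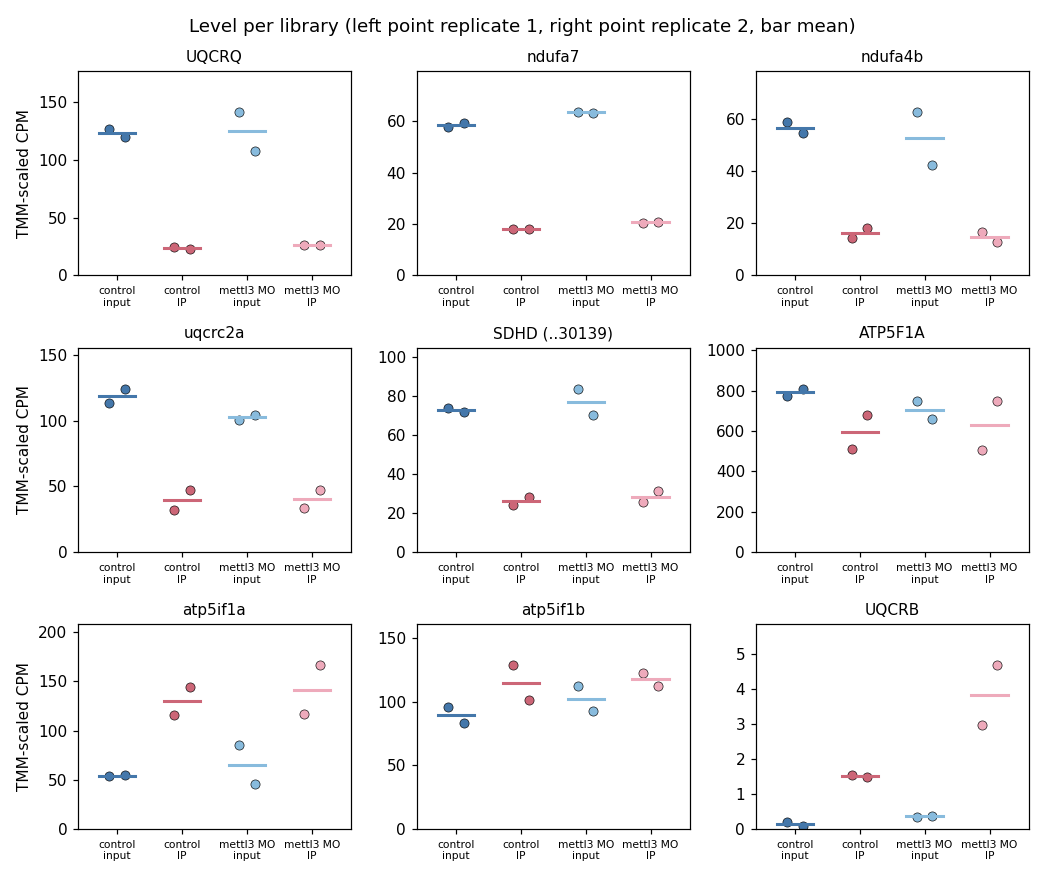
TMM-scaled CPM (linear axes from 0) of 9 subunit genes is plotted for each of the 8 trunk input and IP libraries, with 1 point per library and a bar for the mean of 2. Input and IP separate in the same direction under both labels for UQCRQ, ndufa7, ndufa4b, uqcrc2a and SDHD, separate the other way for UQCRB, and overlap or nearly touch for ATP5F1A and atp5if1b.

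In complex IV, cytochrome c oxidase, 8 of 17 tested genes were lower in control IP and none was higher, with a median of −0.72. The most depleted was ndufa4b of the NDUFA4 family, at 58.5 and 54.4 CPM in inputs and 14.2 and 18.0 CPM in IP, 3.50-fold lower (log2 −1.81, SE 0.23; edgeR adjusted p = 0.0025). COX7A2 had 91.6 CPM in both inputs and 29.4 and 42.6 CPM in IP (log2 −1.35, SE 0.25; edgeR adjusted p = 0.0069). Its sparsely counted relative cox7a1, the heart and skeletal muscle isoform in mammals, was depleted as well, from 3.55 and 2.72 CPM to 0.95 and 1.05 CPM (log2 −1.64, SE 0.28; edgeR adjusted p = 0.0054).

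In several isoform sets of complex IV 1 member was called and 1 was not. Of the COX5B genes, ENSDARG00000015978 went from 194 and 205 CPM in control inputs to 88.7 and 109 CPM in IP (log2 −1.01, SE 0.21; edgeR adjusted p = 0.0099), while ENSDARG00000068738, at 1.35 and 1.44 CPM in inputs, had a log2 fold of −0.66 and was not called. Likewise cox6a1 (ENSDARG00000022438) had a log2 fold of −1.24 (edgeR adjusted p = 0.0049) and COX6A1 (ENSDARG00000054588) of −0.55, not called, at 1.20 and 1.06 CPM in inputs. Of the COX6B genes cox6b2 was called (log2 −0.66), while cox6b1, at 27.6 and 39.1 CPM in inputs, had a lower fold (log2 −0.83) and was not called. Whether members of a set differ from each other was not tested.

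The COX4 genes, whose product is a regulatory subunit, did not pass. COX4I1, with 232 and 248 CPM in control inputs, had 161 and 147 CPM in IP (log2 −0.64, SE 0.35; edgeR adjusted p = 0.202), so its libraries separated in control, but in the morphant set the inputs ran from 138 to 341 CPM. COX4I2, the isoform of lung and low oxygen in mammals, was sparse, at 2.59 and 2.11 CPM in inputs and 1.65 and 1.20 CPM in IP. The third gene, cox4i1l, differed so much between inputs (7.36 and 3.78 CPM) that its fold of −0.57 had an SE of 1.05. In the COX8 set cox8a was at 59.9 and 51.5 CPM in inputs and 62.6 and 80.7 CPM in IP (log2 0.36, SE 0.44), not called, and cox8b was near 1 CPM or below. The COX5A gene cox5aa, at 8.68 and 5.07 CPM against 6.01 and 8.09 CPM, overlapped.

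Complex V gave 10 lower and 1 higher gene of 19 in control, with a median of −0.86. In the catalytic F1 head 4 of 5 genes were lower, with a median of −1.11. ATP5F1B, the beta subunit and the member with the highest CPM of all, went from 1105 and 1112 CPM in inputs to 500.3 and 526 CPM in IP (log2 −1.11, SE 0.17; edgeR adjusted p = 0.0037). Its partner in the head, the alpha subunit ATP5F1A, was at 775 and 810.3 CPM in inputs and 511 and 681 CPM in IP, and was the F1 gene not called (log2 −0.41, SE 0.23; edgeR adjusted p = 0.206). The epsilon subunit atp5f1e had 76.6 and 99.8 CPM in inputs and 21.7 and 34.3 CPM in IP (log2 −1.65, SE 0.37; edgeR adjusted p = 0.0129), a call that was lost without control input replicate 2 (log2 −1.42) or control IP replicate 1 (log2 −1.36).

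The genes of subunit c, the rotor ring in the membrane, are duplicated and encode nearly the same mature protein. Of these atp5mc3b went from 359.7 and 402 CPM in control inputs to 88.6 and 170.2 CPM in IP (log2 −1.56, SE 0.41; edgeR adjusted p = 0.0236) and atp5mc1 from 183 and 175 CPM to 81.0 and 100.1 CPM (log2 −0.98, SE 0.21; edgeR adjusted p = 0.0105). ATP5MC3 did not follow them, with 61.9 and 79.3 CPM in inputs and 75.0 and 103 CPM in IP (log2 0.33, SE 0.23; edgeR adjusted p = 0.308). As a share of all subunit c reads, which does not depend on scaling between libraries, ATP5MC3 took 10.2% and 12.1% in control inputs and 30.7% and 27.6% in control IP. Reads that match several of these genes may have been split or dropped in the authors' counting, so the shares describe the counts as deposited.

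In the peripheral stalk ATP5PO, which tethers the stalk to the F1 head, was lower in IP (188 and 205 CPM against 73.7 and 88.1 CPM; log2 −1.28, SE 0.16; edgeR adjusted p = 0.0026), while subunit b, ATP5PB, was not called (259 and 271 CPM against 281 and 235 CPM; log2 −0.04). Of the 6 small membrane subunits 3 were lower, among them ATP5MG (log2 −1.32) and atp5md (log2 −1.11).

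The only other gene higher in IP was atp5if1a, one of a duplicated pair for the inhibitor that stops the synthase from running backwards. Control inputs held it at 53.4 and 54.6 CPM and control IP at 116 and 144 CPM, so every IP library was above every input, a 2.41-fold higher level (log2 1.27, SE 0.29; edgeR adjusted p = 0.0137). Its duplicate atp5if1b was at 96.0 and 83.7 CPM in inputs and 129 and 101 CPM in IP and was not called (log2 0.35, SE 0.17; edgeR adjusted p = 0.152). The share of atp5if1a among the reads of the pair was 35.8% and 39.5% in control inputs and 47.4% and 58.8% in control IP. The call for atp5if1a was lost without either control input (log2 1.25 and 1.32) or without control IP replicate 2, each of which leaves 1 library in an arm.

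The same comparison in libraries labelled mettl3 morphant gave 46 lower and 2 higher members of 84, with a median of −0.72, where 13.2% of all genes were lower and 13.1% higher. All 46 were among the 50 called in control, which is 92.0% of the control calls, against 76.98% over all genes called lower in control. By complex the lower genes were 21 in complex I, 3 in II, 4 in III, 8 in IV and 10 in V, and the higher genes were again UQCRB and atp5if1a. Both morphant IP libraries lay below both inputs in 55 genes, where 32.3% of all genes did.

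UQCRQ was at 142 and 108 CPM in morphant inputs and 26.0 CPM in both IP libraries, a 4.80-fold lower level (log2 −2.26, SE 0.16; edgeR adjusted p = 0.0018). For ndufa7 the inputs were at 63.7 and 63.2 CPM and the IP libraries at 20.5 and 20.9 CPM (log2 −1.61). For ndufa4b they were at 62.6 and 42.2 CPM and at 16.6 and 12.8 CPM (log2 −1.83). In each of these genes input and IP stood as far apart under this label as under the control label, within 1 standard error. The higher genes were UQCRB, at 0.348 and 0.371 CPM in inputs and 2.99 and 4.68 CPM in IP (log2 3.40, SE 0.41; edgeR adjusted p = 0.0028), and atp5if1a, at 84.9 and 46.1 CPM in inputs and 117 and 166 CPM in IP (log2 1.11, SE 0.29; edgeR adjusted p = 0.0237). The medians within read lengths were further apart here, −0.93 at 151 bp and −0.48 at 101 bp, and 69 of 83 genes (83.1%) had the same sign in both, against 77.8% of all genes. For 21 of the genes called lower the fold reached 2, which 5.78% of all genes tested did.

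Whether the IP over input ratio itself differed between the labels was tested as an interaction. No member was called (edgeR and DESeq2, 0 of 84), and none of the 23163 genes was called by edgeR, 0.0% in each direction, with a lowest adjusted p of 1. The median member change was 0.10, against 0.01 for all genes. At an unadjusted p under 0.05 edgeR gave 1 member, NDUFB4, with a change of −0.71 (SE 0.30, unadjusted p = 0.0427) that followed its higher morphant inputs of 39.4 and 24.3 CPM, and 84 genes in all. Evenly spread p-values would give far more, so the test was conservative and its lack of calls cannot be read as no change. NDUFA6, another accessory subunit of complex I, had a change of 0.42 (unadjusted p = 0.0918).

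Other groups of genes, described in the same control libraries, stand beside these counts. Cytosolic ribosomal protein genes had 46 lower and none higher of 65 and a median of −1.32. Mitochondrial ribosomal protein genes had 19 lower and 6 higher of 64 and a median of −0.29, and assembly factors of the respiratory chain 9 lower and 4 higher of 42 and a median of −0.19. Citric acid cycle enzymes (6 lower of 19, median −0.41) and proteasome subunits (15 lower of 37, median −0.40) lay between. The 13 genes that the mitochondrial genome itself encodes for the same complexes had 4 lower and 3 higher members and a median of 0.09, and the 13 matched regulators of mitochondrial gene expression 1 lower and 2 higher and a median of 0.29. A list of cytochrome c (cycsb), cytochrome c1 (CYC1), the ADP/ATP translocases SLC25A4, SLC25A5 and SLC25A6 and the outer membrane channels VDAC1, VDAC2 and VDAC3 had 3 lower of 7 tested and a median of −0.57. No test was made between these lists.

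The inputs alone compare steady-state RNA of mettl3 morphant and control trunk. No member passed: 0 of 83 by edgeR (lowest adjusted p = 0.9999) and 0 by DESeq2, with 1 member at an unadjusted p under 0.05 by edgeR. Among all 22561 genes edgeR likewise called 0.0% in each direction, with 290 at an unadjusted p under 0.05, and DESeq2 called 1 gene. Evenly spread p-values would put far more genes under 0.05. The test, which held no replicate term, was thus conservative, and its lack of calls cannot be read as no change. The median member fold was 0.08, against 0.01 for all genes. In 11 members both morphant inputs were above both controls and in 8 both were below, at background shares of 13% and 13.1%.

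**Figure D3:**
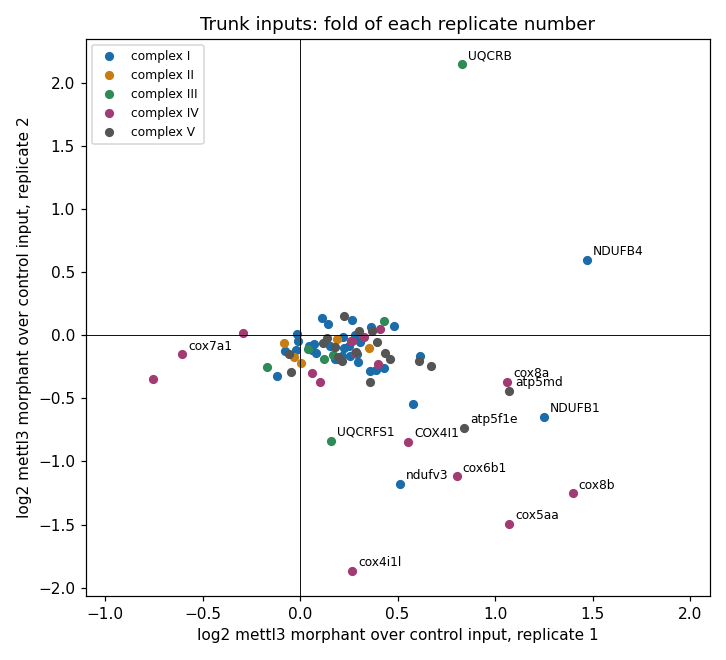
The log2 fold of morphant over control input is drawn for 83 subunit genes between the 151 bp libraries of replicate 1 (horizontal axis) and between the 101 bp libraries of replicate 2 (vertical axis). Most points lie in the lower right, higher in replicate 1 and lower in replicate 2, with cox5aa, cox8a and NDUFB1 far out on that side and NDUFB4 and UQCRB higher in both.

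The pairs of inputs disagreed. Between the 151 bp libraries the median member fold was 0.26 and between the 101 bp libraries −0.14, and only 24 of 83 members (28.9%) had the same sign in both, against 45.4% of all genes. NDUFB1, an accessory subunit of complex I, showed this at 20.4 and 21.7 CPM in control and 48.6 and 13.9 CPM in morphant inputs. The same split held for cox8a (58.1 and 49.9 CPM; 121 and 38.6 CPM), for cox5aa (8.41 and 4.91 CPM; 17.7 and 1.74 CPM) and for COX4I1 (225 and 240.0 CPM; 331 and 134 CPM). In each of these the morphant inputs enclosed the controls. Without morphant input replicate 1 the members' median was −0.15, and without replicate 2 it was 0.26.

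The gene at an unadjusted p under 0.05 was NDUFB4, an accessory subunit of complex I, at 13.8 and 15.6 CPM in control and 38.3 and 23.5 CPM in morphant inputs, with no overlap (log2 1.07, SE 0.24; edgeR adjusted p = 0.9999). UQCRB had 0.190 and 0.0810 CPM in control and 0.338 and 0.359 CPM in morphant inputs (log2 1.39, SE 0.63), from 16 and 30 reads. At the low end stood COX5B (ENSDARG00000068738), at 1.31 and 1.39 CPM against 0.778 and 1.1 CPM (log2 −0.51), and cox7a1, at 3.45 and 2.64 CPM against 2.27 and 2.37 CPM (log2 −0.39). NDUFA6 (log2 −0.22), uqcrc2a (−0.21), cox4i1l (−0.20) and ATP5F1A (−0.17) followed. For uqcrc2a the controls were at 110.1 and 120.5 CPM and the morphants at 97.9 and 101 CPM, close but without overlap. By complex the medians were 0.08, −0.07, −0.03, 0.08 and 0.15 from I to V.

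The next comparison asked which of these transcripts were recovered with Flag-tagged Ythdf2. No input of the RIP itself was used here, so the RIP was set against the control trunk inputs, which also serve the m6A comparison, and the sets of libraries differ in preparation as well as in pulldown. In the RIP libraries 42.9% and 43.8% of reads fell outside genes and the top gene took 20.7% and 23.1% of gene counts. In this fit 53 of 81 tested members were lower in RIP and none was higher, where 6.58% of all 21005 genes were lower and 7.15% higher. The median member fold was −2.76 on the log2 scale against −0.19 for all genes, and all 81 folds were below 0. With genes at 0 RIP reads placed at their bound of 3 reads the median was −2.74. In 79 genes both RIP libraries were below both inputs, where 40.3% of all genes were.

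Scaling mattered to the size of this difference but not to its direction. With total-count scaling all 81 members were called lower, at a median of −4.72, and the median of all genes moved to −2.12. The median between libraries of replicate 1 was −2.16 and between those of replicate 2 −3.90. All 72 members measured in both had the same sign, against 77.3% of all genes. Both RIP libraries were read at 101 bp, so replicate 1 set a 101 bp library against a 151 bp input. Without control input replicate 1 or 2 only 10 or 7 members passed. Set against the control m6A IP libraries instead of the inputs, 31 members were lower, at a median of −2.01. The share of all genes called in these alternative settings is not given, so their counts cannot be read as particular to the members.

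**Figure D4:**
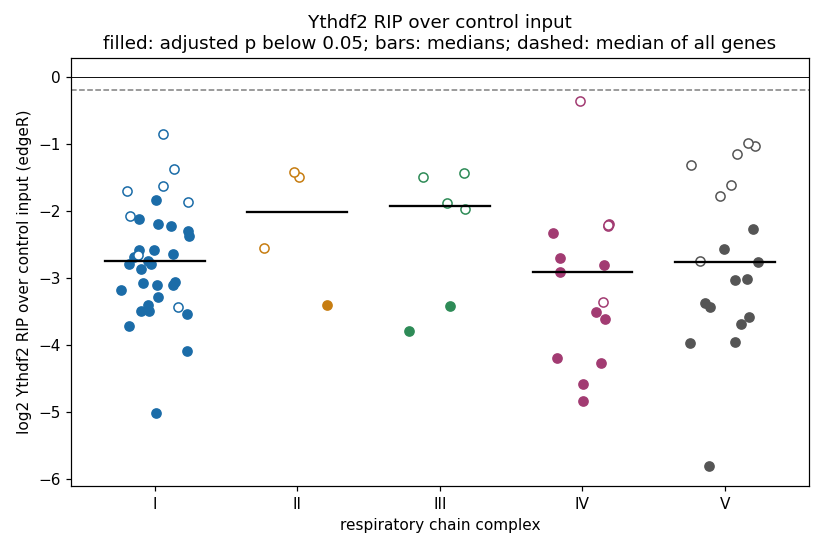
The log2 fold of Ythdf2 RIP over control input is drawn for 79 subunit genes in columns by complex, with genes that passed the test filled, bars for the median of each complex and a dashed line for that of all genes. All points lie below 0, and COX6A1 (ENSDARG00000054588), NDUFS1, ATP5PB and ATP5F1A lie nearest to it while atp5md, NDUFB11 and COX7A2 lie farthest.

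By complex, 27 of 35 tested genes were lower in RIP in complex I (median −2.74), 1 of 4 in II (−2.02), 2 of 6 in III (−1.92), 11 of 17 in IV (−3.36, or −2.81 with genes without RIP reads at their bound) and 12 of 19 in V (−2.76). The core subunits of complex I had a smaller median depletion (4 of 7 lower, −2.20) than its accessory subunits (23 of 28 lower, −2.96). In complex V the F1 head gave 2 of 5 lower at −1.62 and the small membrane subunits 6 of 6 lower at −3.82. The difference between these classes was not tested.

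Among genes with RIP reads the lowest fold was that of atp5md, a small membrane subunit of the synthase, with 37.2 and 45.6 CPM in control inputs against 1.03 and 0.354 CPM in RIP (log2 −5.82, SE 0.65; edgeR adjusted p = 0.0068). Next came NDUFB11, at 32.1 and 33.2 CPM in inputs and 1.80 and 0 CPM in RIP (log2 −5.02, SE 0.84; edgeR adjusted p = 0.0237). COX7A2 was at 45.7 and 45.5 CPM against 2.31 and 0.708 CPM (log2 −4.84, SE 0.63; edgeR adjusted p = 0.0108). These libraries held only a handful of reads for each gene, and RIP and input did not overlap in any of them.

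In ndufa4b the inputs were at 29.2 and 27.0 CPM and the RIP libraries at 1.54 and 0.708 CPM (log2 −4.58, SE 0.57; edgeR adjusted p = 0.0090), and in cox6c, another small subunit of cytochrome c oxidase, at 74.7 and 69.8 CPM against 6.41 and 0.708 CPM (log2 −4.28, SE 0.83; edgeR adjusted p = 0.0303). UQCRQ, at 63.0 and 59.7 CPM against 6.16 and 2.48 CPM (log2 −3.80, SE 0.59; edgeR adjusted p = 0.0182), and ndufa7, at 28.8 and 29.5 CPM against 5.39 and 1.06 CPM (log2 −3.11, SE 0.67; edgeR adjusted p = 0.0349), were lower as well. COX4I2 had no RIP read against 283 input reads, and was 2.57-fold lower with 3 reads over the group put in place of 0. The genes cox8b, UQCRB and ndufa9b also had no RIP read, and their input counts were too low for such a value. The calls kept in all 12 settings, the main fit included, were COX7A2, NDUFAB1, NDUFB11, atp5md, atp5meb, cox6c and ndufa4b. The share of all called genes that kept theirs is not given.

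The 6 members nearest to 0 did not pass the test. NDUFS1 was at 90.1 and 85.5 CPM in inputs and 58.5 and 38.9 CPM in RIP (log2 −0.85, SE 0.49; edgeR adjusted p = 0.242). ATP5F1A was at 386 and 403 CPM against 246 and 142 CPM (log2 −1.02, SE 0.58; edgeR adjusted p = 0.238), and ATP5PB at 129 and 134 CPM against 97.7 and 35.8 CPM (log2 −0.98). For NDUFS1 the direction turned when the control IP libraries replaced the inputs (log2 0.43). The inhibitor gene atp5if1a, higher in m6A IP, was at 26.6 and 27.1 CPM in inputs and 18.2 and 5.67 CPM in RIP (log2 −1.15, SE 0.58; edgeR adjusted p = 0.193). ATP5F1C, the gamma subunit, was at −1.31, and the beta subunit ATP5F1B, with the highest CPM, at −1.62. COX6A1 (ENSDARG00000054588) had the fold nearest to 0, −0.35 with an SE of 0.98, from 3 RIP reads.

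Of the duplicated genes, atp5mc1 (log2 −3.03), atp5mc3b (−2.57) and ATP5MC3 (−1.77, edgeR adjusted p = 0.0680) spread over more than 1 log2 unit, and UQCRC2 (−1.43) was nearer to 0 than uqcrc2a (−1.97, edgeR adjusted p = 0.0532). Since the m6A and RIP comparisons share the control inputs, their folds stand side by side here and no relation between them is drawn. The other lists in the RIP comparison were cytosolic ribosomal protein genes with 43 of 65 lower (median −3.09), mitochondrially encoded subunits with 9 of 13 lower (−3.84), mitochondrial ribosomal protein genes with 35 of 64 lower (−2.12) and assembly factors with 16 of 42 lower (−1.78). Proteasome genes had 4 of 36 lower (−1.52), citric acid cycle enzymes 3 of 19 (−1.21) and the list of cytochromes, ADP/ATP translocases and VDAC channels 0 of 7 (−1.81), and the regulators had 1 of 13 higher and a median of 0.13.

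The endothelial libraries compare both morphants with control in the cells that line vessels. The 2 count columns of each group differed by about the sampling noise (chi-square per degree of freedom of 1.04 in control, 1.01 in mettl3 morphant and 1.04 in ythdf2 morphant, against 59.4 to 338 in the other groups), so they were summed and counted as 1 sample. Each contrast therefore sets 1 pool against 1 pool, with no test. Intervals given here are exact binomial 95% intervals that cover counting error alone. Both contrasts share the control pool.

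The pools differed in their makeup, and this stands beside every value that follows. The summed level of 15 skeletal muscle markers was 54670 and 54117 CPM in the control columns, above the 39728 and 40476 CPM of control trunk inputs. It was 3243 and 3273 CPM in the mettl3 morphant columns, where all 15 markers were lower by 2-fold or more and 1 was at 0, and 13027 and 12904 CPM in the ythdf2 morphant columns, where 13 of 15 were. The 11 endothelial markers found, none at 0, summed to 1931 and 2001 CPM in control, 4783 and 4843 CPM in mettl3 morphant and 5714 and 5730 CPM in ythdf2 morphant columns, against 216 and 294 CPM in control trunk inputs. Much of that sum was stab2 and she, and single markers differed: 5 were higher by 2-fold or more and none lower in the mettl3 morphant pool (median log2 fold 0.92), and 8 were higher and 2 lower in the ythdf2 morphant pool (median 1.51). The 2 lower ones were cdh5, at 22.95 and 28.5 CPM in control and 3.93 and 2.51 CPM in ythdf2 morphant columns, and KDR, at 14.95 and 11.6 CPM against 3.93 and 3.35 CPM. The 5 erythroid markers found summed to 181 and 172 CPM in control, 55.1 and 44.8 CPM in mettl3 morphant and 21.3 and 13.7 CPM in ythdf2 morphant columns. The 10 epidermal markers summed to 2462 and 2484, 2385 and 2386, and 5318 and 5243 CPM in the same order, most of it krt8. As single genes 9 of the 10 were below 0 in the mettl3 morphant pool (median log2 fold −1.91, 6 lower by 2-fold or more, 2 at 0) and 6 of the 10 in the ythdf2 morphant pool (median −0.11, 1 at 0). The 8 neural markers found summed to 856 and 865, 959 and 939, and 472 and 471 CPM. Of these 7 were below 0 in the mettl3 morphant pool (median −0.89) and 8 in the ythdf2 morphant pool (median −1.09), with ELAVL4 and nrxn1a at 0 in both. The part of muscle or other RNA in the folds of the respiratory chain genes was not tested.

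In the mettl3 morphant pool respiratory chain transcripts were mostly lower. Of 77 members with at least 20 counts in a pool, 62 (80.5%) were below 0, against 54.4% of all genes, and the median log2 fold was −0.36, against −0.15 for all genes. By 2-fold or more 14 were lower and 1 higher, where 32.0% and 19.9% of all genes were, so the count of strongly lower members lay under the background. With total-count scaling the median was −0.09 against 0.12 for all genes and 42 members (54.5%) were below 0, against 46.7% of all genes. By complex the medians were −0.29 in I, −0.81 in II, −0.82 in III, −0.05 in IV and −0.26 in V. Cytosolic ribosomal protein genes had 59 of 64 below 0 (median −0.27) and mitochondrial ribosomal protein genes 46 of 63 (−0.38). Mitochondrially encoded subunits had 11 of 13 (−0.68), citric acid cycle enzymes 14 of 16 (−0.88) and assembly factors 29 of 42 (−0.61). Regulators had 5 of 9 (−0.39), the cytochrome, translocase and VDAC list 3 of 6 (−0.48) and proteasome genes 9 of 36 (0.23). Lower levels were thus not particular to the members. No test was made between lists.

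**Figure D5:**
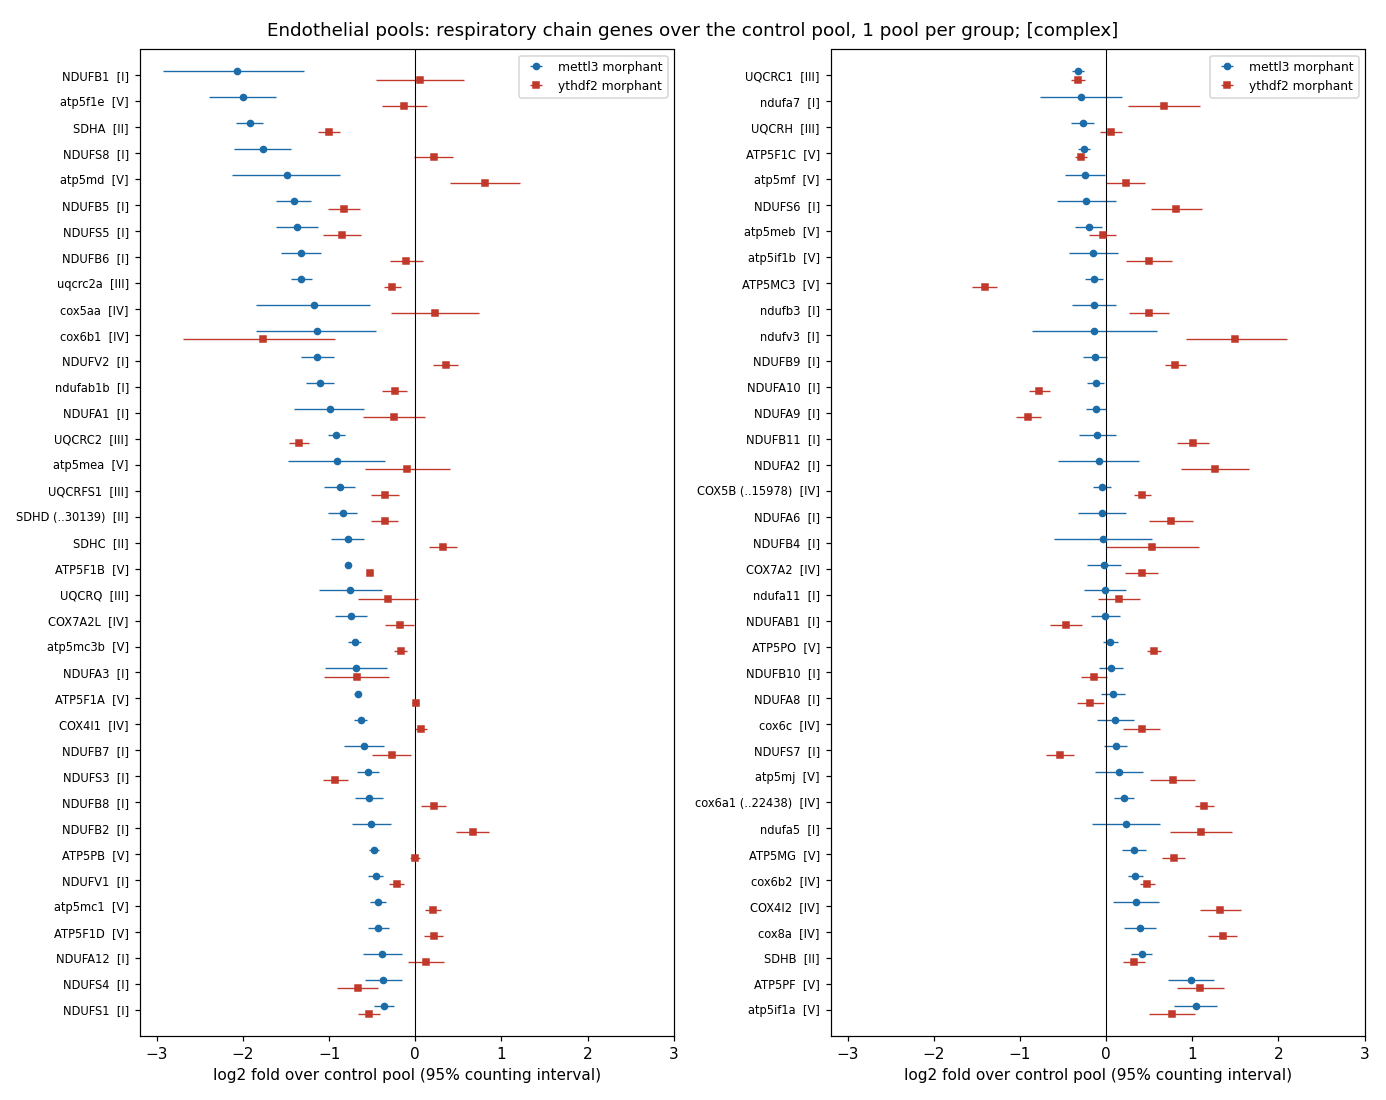
The log2 fold over the control endothelial pool (horizontal axis) is drawn for 74 subunit genes in the mettl3 morphant pool (circles) and the ythdf2 morphant pool (squares), ordered by the former, with 95% counting intervals, 1 pool per group and the control pool shared. Circles lie mostly left of 0 and squares on both sides, with atp5if1a and ATP5PF right of 0 in both pools and SDHA left of 0 in both.

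The lowest member was cox8b, which had 0 counts in the mettl3 morphant pool against 35 in control. With 3 counts over the group put in place of 0 it was 11.8-fold lower (log2 interval up to −3.18). It passed the filter through the control pool alone, where it was high. For cox7a1 the counts were 0 against 5, too few to give a direction, with an interval up to 0.11. Both are muscle-type isoforms in mammals. NDUFB1 had 17 counts against 71 (log2 −2.07, interval −2.93 to −1.30) and the epsilon subunit atp5f1e 71 against 281 (−2.0, −2.39 to −1.62). SDHA, the catalytic flavoprotein of complex II, had 433 against 1624 counts (−1.92, −2.08 to −1.77), and the iron-sulphur subunit NDUFS8 100 against 338 (−1.77, −2.11 to −1.44). Next came atp5md with 31 against 86 counts (−1.48, −2.13 to −0.88). Of the UQCRC2 pair, uqcrc2a was at −1.32 and UQCRC2 at −0.92.

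The highest were atp5if1a, with 408 against 197 counts (log2 1.04, interval 0.79 to 1.29), and ATP5PF, coupling factor 6 of the peripheral stalk, with 346 against 174 counts (0.98, 0.71 to 1.25). Far behind came SDHB (0.41), cox8a (0.39), COX4I2 (0.35) and cox6b2 (0.34). Complex II thus held both a strongly lower gene, SDHA, and a slightly higher one, SDHB, which had 1324 against 987 counts. UQCRQ was at −0.75 and ndufa7 at −0.29.

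In the ythdf2 morphant pool the same genes lay on both sides of 0. The median was 0.06, against −0.18 for all genes, with 36 of 77 members (46.8%) below 0, against 54.7% of all genes. By 2-fold or more 9 were higher and 4 lower, where 21.7% and 32.7% of all genes were. With total-count scaling the median was 0.25 against 0.01 for all genes. The medians were −0.10 in complex I, −0.02 in II, −0.32 in III, 0.41 in IV and 0.20 in V.

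The highest member was cox7a1, with 37 counts against 5 (log2 3.10, interval 1.74 to 4.80), and ndufv3, a small accessory subunit of complex I, followed with 88 against 36 (1.5, 0.92 to 2.1). Genes with more reads came next: cox8a with 931 against 421 counts (1.35, 1.19 to 1.52), COX4I2 with 467 against 216 (1.32, 1.08 to 1.56), NDUFA2 with 168 against 81 (1.26, 0.87 to 1.66) and cox6a1 (ENSDARG00000022438) with 2001 against 1051 (1.14, 1.03 to 1.25). Of these 6 genes 4 belong to cytochrome c oxidase, cox7a1 among them, as do 13 of the 77 members measured. The higher cox7a1 and the lower cox8b went in opposite directions in the same pool, but each passed the filter only through the pool where it was high.

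The lowest members were cox6b1, with 15 counts against 59 (log2 −1.77, interval −2.69 to −0.93), and cox8b, with 10 against 35 (−1.60, −2.78 to −0.55). As above, cox8b passed the filter through the control pool alone. ATP5MC3 had 506 against 1554 counts (−1.41, −1.56 to −1.27) and UQCRC2 887 against 2610 (−1.35, −1.46 to −1.24), while their duplicates atp5mc3b (−0.17) and uqcrc2a (−0.26) stood nearer to 0. SDHA, with 703 against 1624 counts (−1.0, −1.13 to −0.87), and the core subunit NDUFS3, with 553 against 1215 (−0.93, −1.08 to −0.78), completed the lowest 6. ATP5F1B was at −0.52 here and at −0.78 in the mettl3 morphant pool.

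Shares within duplicated gene sets, which no scaling between pools can move, were set beside the folds. Of the reads of the 2 UQCRC2 genes, uqcrc2a took 41.4% and 40.5% in the control columns, 35.3% and 33.5% in mettl3 morphant and 58.1% and 60.9% in ythdf2 morphant columns. ATP5MC3 took 21.6% of subunit c reads in both control columns, 28.2% and 26.7% in mettl3 morphant and 9.81% and 9.23% in ythdf2 morphant columns. COX4I2 took 5.49% and 5.21% of COX4 reads in control, 11.2% and 8.89% in mettl3 morphant and 12.3% and 11.4% in ythdf2 morphant columns. For atp5if1a the share of its pair was 45.2% and 49.5% in control, 67.7% and 66.7% in mettl3 morphant and 53.1% and 50.7% in ythdf2 morphant columns. The trunk inputs of both labels had less COX4I2, from 0.831% to 1.45% of COX4 reads.

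The control endothelial pool was also set against the control trunk inputs. Of 82 members 7 were higher by 2-fold or more than in both inputs, where 14% of all genes were. Another 27 were lower, where 48.9% were, so both counts lay under the background. The filter, at least 20 counts in the pool or in either input, also admitted genes with few pool counts through the deeper inputs. COX4I2 was the highest, at 24.8 CPM in the pool and 2.42 and 1.96 CPM in inputs (log2 3.36 to 3.66). The others were cox8b, ATP5MC3 (178 CPM against 57.8 and 73.7 CPM), ATP5PB, NDUFS3, UQCRC2 and NDUFA10. With total-count scaling 3 were higher and 28 lower, where 10.7% and 50.2% of all genes were.

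At the low end ndufa4b stood at 1.72 CPM in the control pool against 54.6 and 50.6 CPM in inputs (log2 −4.99 to −4.88), and had no count in either morphant pool. The gene cox4i1l had no count in any pool and was at 6.87 and 3.52 CPM in inputs. Both genes passed the filter only through the inputs, where they were high, and ndufa4b rested on 15 counts in the control pool. UQCRQ (19.7 CPM against 118 and 111.7 CPM), atp5md (9.86 CPM against 69.7 and 85.3 CPM) and ndufa7 (9.74 CPM against 54.0 and 55.1 CPM) were also far lower in the pool. Endothelial and trunk libraries differ in preparation and depth as well as in cells, and what each adds cannot be told apart.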

How the data were processed

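Trunk m6A IP and input, Ythdf2 RIP and endothelial RNA libraries were sequenced as paired reads, per the labels' protocols. The authors deposited raw counts of reads per Ensembl gene for 16 libraries. TopHat2 2.0.9 and HTSeq 0.5.3p9 are named in the submitters' processing notes; the genome build, annotation and strand setting behind the counts were not given in the sources used here. Rows that name no gene (no feature, ambiguous) were left out of library sizes. No sample column was left unmapped (0). Control miCLIP libraries and peak files were not analysed here.

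Counts were fitted in R 4.3.3 with edgeR 4.0.16 (TMM, low-count filter, quasi-likelihood F test, Benjamini-Hochberg adjustment, threshold 0.05). Each standard error (SE) was derived from that test, as the absolute log2 fold divided by the square root of F. There was 1 fit over the 8 input and IP libraries, 1 over the 4 inputs and 1 over RIP and control inputs; levels are scaled within each fit. DESeq2 1.42.0, total-count scaling, no filter, a replicate block, other RIP controls and leaving out each library were alternatives. Endothelial columns were summed per group, with exact binomial 95% intervals and a floor of 3 counts. Intervals and floors cover counting error only. The scripts were tested on simulated data. Members and comparison lists were chosen with earlier results of these data known. A single gene is not reported here by name or drawn by name. Named were the 6 lowest and 6 highest members of each comparison, the highest CPM of each complex, duplicated genes and isoform sets; other members named in the text, and the lists of settings-stable calls, were chosen after their values were seen.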

Additional observations from a re-analysis of the deposited data

Results flagged for a closer look

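In 9 of 77 members (11.7%) the mettl3 morphant endothelial pool lay below the control pool while both trunk inputs labelled mettl3 morphant lay above both control inputs, which 7.2% of all genes did. In the pool 80.5% of members lay below 0 under this scaling, against 54.4% of all genes. The higher share can therefore not be read as an opposition between cell sources that is particular to the members. The difference between the cell sources was not tested. In 5 of the 9 the counting interval of the pool fold lay below 0, and the share of all genes that did so is not given. NDUFB6, an accessory subunit of complex I, was at −1.32 on the log2 scale in the pool and at 0.27 and 0.12 between the trunk inputs of replicates 1 and 2. NDUFB2, also of complex I, was at −0.51 in the pool and at 0.28 and 0.0012 in trunk. UQCRH was at −0.27 in the pool and at 0.43 and 0.11 in trunk. Of the ATP synthase genes, atp5mf was at −0.25 in the pool and at 0.30 and 0.03 in trunk, and ATP5MC3 at −0.14 in the pool and at 0.37 and 0.03 in trunk. With total-count scaling of the pools 4 members (5.2%) kept opposite directions of this kind, against 6.0% of all genes: ATP5MC3 (0.13) and atp5mf (0.02) were then above 0 in the pool, UQCRH was at −0.0049, and NDUFB2 (−0.24) and NDUFB6 (−1.06) were below. The pool folds have 1 sample per group.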

How the results depend on the processing

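For the lowest and highest members of the IP, input and RIP comparisons, and some named ones, results were counted per gene and alternative setting. Of these, 470 kept direction and side of the threshold, 16 gained and 10 lost a call, and 10 turned. A result called in neither fit counts as kept. Among all members called lower, 23 of 50 in control IP, 14 of 46 in morphant IP and 7 of 53 in RIP kept the call in every setting. Member counts in alternative settings stand here without the share of all genes called in the same setting. Total-count scaling left 25 members lower in control IP and 15 in morphant IP and called all 81 lower in RIP, and moved the endothelial medians to −0.0922 (mettl3 morphant) and 0.25 (ythdf2 morphant). With 1 library left out, lower members ran from 25 to 52 in control IP, 24 to 46 in morphant IP and 7 to 75 in RIP, and higher members from 1 to 2 and 1 to 5; endothelial medians ran from −0.41 to −0.31 and 0.03 to 0.09. RIP against control IP gave 31 lower. Turned were, with the range over libraries left out, NDUFA12 (−0.0252 without morphant input 2, to 0.98) and ndufb3 (−0.0474, to 0.54) in morphant IP; in inputs cox4i1l (0.36 without control input 1, 0.67 without morphant input 2, down to −2.42 without morphant input 1) and, without morphant input 1, NDUFB1 (−0.60, to 1.19 without morphant input 2), cox5aa (−1.93, to 1.40), cox8a (−0.48, to 1.16) and atp5md (−0.30, to 0.90); and NDUFS1 in RIP against control IP (0.43). Same-numbered input and IP libraries deviated together (r = 0.448 and 0.302 across genes; inputs 0.399, IP 0.344; RIP and control input −0.02), but there are only 2 pairs and the numbers share a read length, not a stated animal. With the replicate block 52 members were lower and 3 higher in control IP, 48 and 2 in morphant IP, 61 lower in RIP, 0 called in inputs or in the change, and cox5aa in inputs turned to −0.11. The cause of these shifts was not tested. Depth limits UQCRB, ndufa9b, SDHD (ENSDARG00000055712) and most RIP folds.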
